A study of Homo sapiens with 4 samples.

Results

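The aryl hydrocarbon receptor (AHR) pathway was examined in AGS, a cell line established from a human gastric adenocarcinoma, through 9 genes: the receptor AHR, its partner ARNT, the repressor AHRR and the target genes CYP1A1, CYP1A2, CYP1B1, TIPARP, ALDH3A1 and NQO1. Its members were all probe sets that the platform annotation maps to exactly 1 of these symbols, which gave 21 of the 54613 probe sets other than controls, and 9 of 19775 named genes. The genes were chosen by pathway, around CYP1A1, which was selected on its measured difference between LPS-treated and untreated arrays. The LPS minus untreated differences of all 21 probe sets are therefore given as a description, with standard errors and no test. The 2 LPS arrays came from cells given Helicobacter pylori lipopolysaccharide (LPS, a glycolipid of the bacterial outer membrane) at 10 µg/ml in their medium, and the 2 untreated arrays from cells given fresh medium alone. Both groups were harvested after 8 h, were grown with foetal calf serum, penicillin and streptomycin, and came from 2 experiments that the design text calls independent. A cell line stands for a single tumour, and purified LPS for 1 component of the bacterium.

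The AHR is a transcription factor that resides in the cytoplasm in a complex with the chaperone HSP90. Planar aromatic compounds, including products of tryptophan, bind it and send it to the nucleus, where it pairs with ARNT and binds DNA elements with the core GCGTG. Its best known targets are the CYP1 cytochrome P450 genes, whose enzymes oxidise aromatic compounds, and genes that restrain the receptor, AHRR and TIPARP. CYP1A1 is widely used as a readout of AHR activity in epithelial cells.

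The values are log2 expression, and 0 of 54613 probe sets passed an adjusted p of 0.05 in either direction (limma, Benjamini-Hochberg, 0% called higher and 0% called lower). At an unadjusted p under 0.05 (limma), 704 were higher and 715 lower, together 1419 of the 54613. By gene, on the probe set with the highest mean, the share at that level was 2.15%. The 7 epithelial markers measured had group means of 7.93 to 14.43 with LPS and 7.68 to 14.38 untreated. Of these, EPCAM averaged 13.49 with LPS and 13.56 untreated, and KRT7 was the lowest. The 4 leukocyte markers measured had group means of 4.83 to 7.11 with LPS and 4.94 to 7.13 untreated, the 3 endothelial markers 4.87 to 7.06 and 4.77 to 7.20, and the 4 fibroblast markers 3.78 to 8.67 and 3.75 to 8.59. As a guide to background signal, the 14 measured genes restricted to other organs, such as the eye, pancreas and testis, had group means of 4.35 to 6.89 with LPS and 4.32 to 7.07 untreated. Probe sets differ in affinity, so words such as bright or dim, and comparisons with this range, are only a rough guide to level. The arrays differed by replicate number in control signal: the 18S ribosomal RNA probe sets averaged 9.89 and 7.98 on LPS replicates 1 and 2, against 10.07 and 8.12 on untreated replicates 1 and 2. Poly-A control probe sets were also lower on replicate 2, at 7.72 and 7.16 on LPS replicates 1 and 2, against 8.17 and 7.23 untreated. A fit with a block for replicate number is given at the end, but the part of the control signal itself was not tested.

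CYP1A1, the P450 that hydroxylates polycyclic aromatic hydrocarbons, had the widest separation between the groups of the 9 genes. Its only probe set (205749_at) read 9.80 and 9.76 on the LPS arrays, against 8.70 and 8.44 on the untreated arrays. Both LPS arrays lay above both untreated arrays, and the gap of 1.06 between the groups was wider than the 0.26 between the untreated arrays. The difference of means was 1.21 ± 0.13 (SE), or 2.32-fold with a 95% interval of 1.87 to 2.88. That interval takes no account of CYP1A1 having been selected on this same difference. Same-numbered arrays differed by 1.11 (number 1) and 1.32 (number 2). Of all 54613 probe sets this was the highest difference, and the next highest was 0.59. The level of CYP1A1 in untreated cells was above the range of the genes restricted to other organs. A single probe set reads CYP1A1, so no second probe set could be set beside it.

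CYP1A2 is the neighbour of CYP1A1 on chromosome 15. The genes are read in opposite directions from starts 23317 bases apart, and their promoters are shown because CYP1A1 differed by over 2-fold between the groups and its close relative beside it did not. Each window runs from 250 bases before to 50 bases after the start, on the gene's strand (RefSeq, build GRCh38.p14), at chr15:74725479-74725778 on the minus strand for CYP1A1 and chr15:74748595-74748894 on the plus strand for CYP1A2. Capitals mark the AHR core GCGTG on either strand.
CYP1A1: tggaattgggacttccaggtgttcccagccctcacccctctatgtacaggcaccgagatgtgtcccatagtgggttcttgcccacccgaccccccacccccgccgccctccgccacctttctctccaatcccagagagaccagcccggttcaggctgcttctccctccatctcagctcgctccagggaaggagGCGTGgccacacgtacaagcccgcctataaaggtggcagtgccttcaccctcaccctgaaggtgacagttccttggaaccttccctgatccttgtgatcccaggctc
CYP1A2: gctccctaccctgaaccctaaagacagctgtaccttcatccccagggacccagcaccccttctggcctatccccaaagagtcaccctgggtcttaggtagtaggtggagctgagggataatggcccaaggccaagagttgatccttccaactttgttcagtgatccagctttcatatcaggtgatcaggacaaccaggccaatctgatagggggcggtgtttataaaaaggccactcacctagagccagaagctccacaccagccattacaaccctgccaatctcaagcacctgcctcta
The CYP1A1 window held 1 core, which begins 57 bases before the start, and the CYP1A2 window held 0. Over the pathway, 7 genes had 10 windows in the table, of which 6 held a core (in AHR, AHRR, CYP1A1, NQO1 and TIPARP), and of all 35116 windows 36.5% did. The longer motif TNGCGTG, which contains the core, was found on either strand in 2 of the 10 windows (1 of AHRR and that of NQO1) and in 5.51% of all windows. A match is a description of the letters in these windows and says nothing of binding. DNA beyond the windows was not examined, so 1 core against 0 does not compare all AHR sites of CYP1A1 and CYP1A2.

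The other CYP1 genes had differences of at most 0.26. CYP1A2, a P450 made mainly in liver, read 8.03 and 7.87 on the LPS arrays, against 8.08 and 8.06 on the untreated arrays, on its brighter probe set (207608_x_at). The LPS arrays lay just below the untreated ones, by -0.12 ± 0.12 (SE), and the interval of the ratio ran from 0.75 to 1.13. The other CYP1A2 probe set (207609_s_at) differed by -0.06 ± 0.15 with arrays that overlapped. Names ending in _x_at or _s_at mark probe sets that can share signal between related transcripts, so the CYP1A2 level may not be that of CYP1A2 alone.

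CYP1B1, which oxidises oestradiol and aromatic hydrocarbons outside the liver, was dim. Its 4 probe sets lay between 3.53 and 5.90 on all arrays, within or below the range of the genes restricted to other organs, and the signal may be background. On the probe set with the highest mean (202436_s_at), CYP1B1 read 5.58 and 5.90 on the LPS arrays, against 5.64 and 5.32 on the untreated arrays. The groups overlapped, and the difference of 0.26 ± 0.17 (SE) was -0.07 for array number 1 and 0.58 for number 2. The other CYP1B1 probe sets differed by -0.14 to -0.01.

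**Figure D1:**
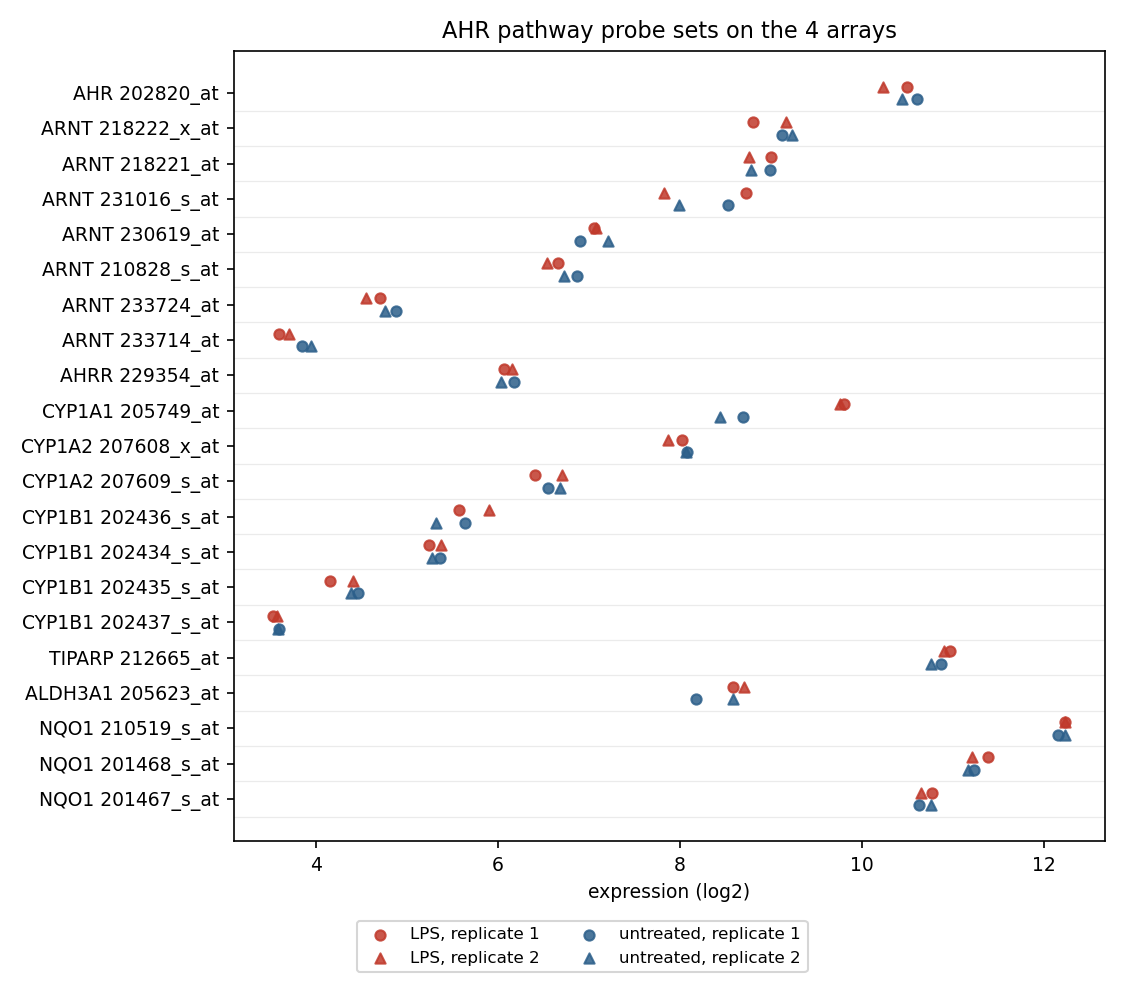
Log2 expression (x axis) of the 21 AHR pathway probe sets (rows) on each of the 4 arrays, with LPS in red and untreated in blue, circles for replicate 1 and triangles for replicate 2. CYP1A1 has both LPS arrays (9.80 and 9.76) well to the right of both untreated arrays (8.70 and 8.44), while the arrays of most other probe sets lie close together or overlap.

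Of the sensing machinery, AHR itself was bright. AHR read 10.49 and 10.23 on the LPS arrays, against 10.61 and 10.45 on the untreated arrays. The groups overlapped, and each LPS array lay below the untreated array of the same number, with differences of -0.12 (number 1) and -0.22 (number 2). The difference of means was -0.17 ± 0.13 (SE), with an interval of the ratio from 0.72 to 1.10. The highest AHR reading was on untreated replicate 1, and a link between the levels of AHR and CYP1A1 was not tested.

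ARNT, which also pairs with the hypoxia factors, had 7 probe sets that did not move alike. On the brightest (218222_x_at), ARNT read 8.80 and 9.17 on the LPS arrays, against 9.12 and 9.24 on the untreated arrays, with overlap and a difference of -0.19 ± 0.15 (SE). The next brightest (218221_at) averaged 8.88 ± 0.17 with LPS and 8.89 ± 0.15 untreated (SD, n = 2 each), a difference of -0.01 ± 0.14 (SE). Neither probe set separated the groups.

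In 3 ARNT probe sets both LPS arrays lay below both untreated arrays, with differences of -0.25 ± 0.08, -0.20 ± 0.12 and -0.20 ± 0.10 (SE). Of these, 233714_at and 233724_at read 3.60 to 4.88 over the 4 arrays, and 210828_s_at read 6.66 and 6.55 with LPS, against 6.87 and 6.73 untreated. All 3 lay within or below the range of the genes restricted to other organs, so their signal may be background. The ARNT probe set 231016_s_at followed the replicate number instead. It read 8.73 and 7.83 on LPS replicates 1 and 2, against 8.53 and 7.99 on untreated replicates 1 and 2, in the same direction as the 18S control signal. Its difference between groups was 0.02 ± 0.32. The last ARNT probe set (230619_at) differed by 0.01 ± 0.14.

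AHRR, the repressor that competes with AHR for ARNT and is itself an AHR target, read 6.06 and 6.16 on the LPS arrays, against 6.18 and 6.04 on the untreated arrays. The arrays interleaved, and the difference was 0.00 ± 0.12 (SE). Its level was inside the range of the genes restricted to other organs, and the signal may be background.

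TIPARP, an ADP-ribosyltransferase that AHR induces and that limits the receptor, read 10.97 and 10.90 on the LPS arrays, against 10.87 and 10.76 on the untreated arrays. Both LPS arrays were above both untreated arrays, but by little: the difference was 0.12 ± 0.09 (SE), and the interval of the ratio ran from 0.93 to 1.27. Its level was above the range of the genes restricted to other organs.

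ALDH3A1, an aldehyde dehydrogenase, had the largest positive difference of the 9 genes after CYP1A1. It read 8.59 and 8.71 on the LPS arrays, against 8.18 and 8.58 on the untreated arrays. The groups did not overlap, yet the lower LPS array and the higher untreated array were nearly equal. The difference of 0.27 ± 0.16 (SE) was 0.41 for array number 1 and 0.12 for number 2, and it was smaller than the 0.40 between the untreated arrays themselves.

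NQO1, the quinone reductase that both AHR and the stress factor NRF2 can induce, read well above the range of the genes restricted to other organs. On its brightest probe set (210519_s_at), NQO1 read 12.24 and 12.24 on the LPS arrays, against 12.16 and 12.24 on the untreated arrays. The lower LPS array and the higher untreated array were equal to 2 decimals, and the difference was 0.04 ± 0.07 (SE). The other NQO1 probe sets differed by 0.10 ± 0.10 and 0.02 ± 0.10, both with overlap. The upper bounds of the ratio ran from 1.16 to 1.27 over the 3 probe sets.

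**Figure D2:**
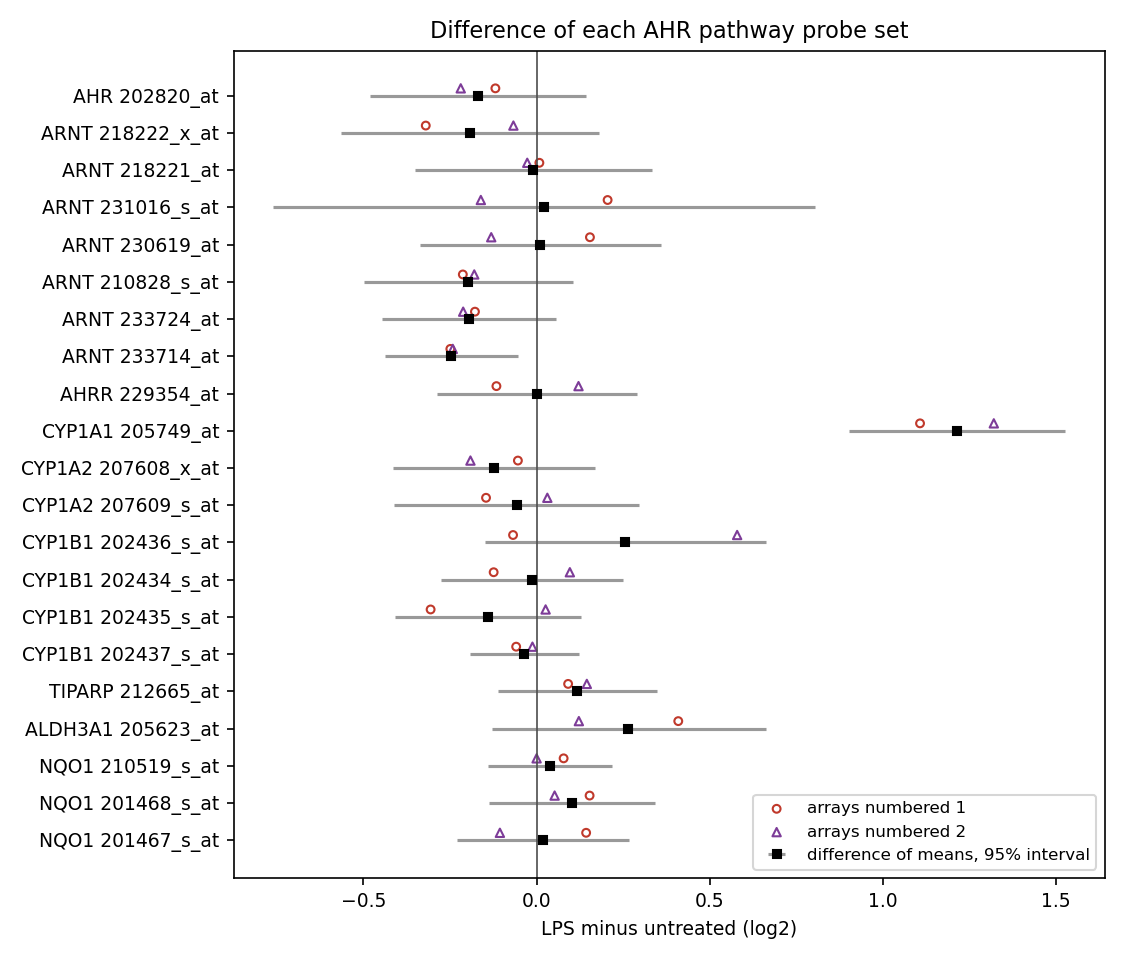
LPS minus untreated difference on the log2 scale (x axis) of the 21 AHR pathway probe sets (rows). Squares are differences of group means with 95% intervals from the limma fit, and open circles and triangles the differences between arrays numbered 1 and between arrays numbered 2; CYP1A1 stands at 1.21, and every other probe set lies between -0.25 and 0.27.

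Over the 21 probe sets, 10 differed upwards and 11 downwards, with a median of -0.01, against 0.02 over all probe sets. With no minimum gap, both LPS arrays lay above both untreated arrays in 4 (CYP1A1, TIPARP, ALDH3A1 and NQO1 210519_s_at, the last by less than the second decimal), where 17.6% of all probe sets did, and below them in 5 (3 of ARNT, 1 of CYP1A2, 1 of CYP1B1), where 11.9% did. Without CYP1A1 the differences ran from -0.25 to 0.27. The SE of a single probe set was 0.12 at the median of all probe sets. The difference of TIPARP, 0.12, equalled the 0.12 between its untreated arrays.

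**Figure D3:**
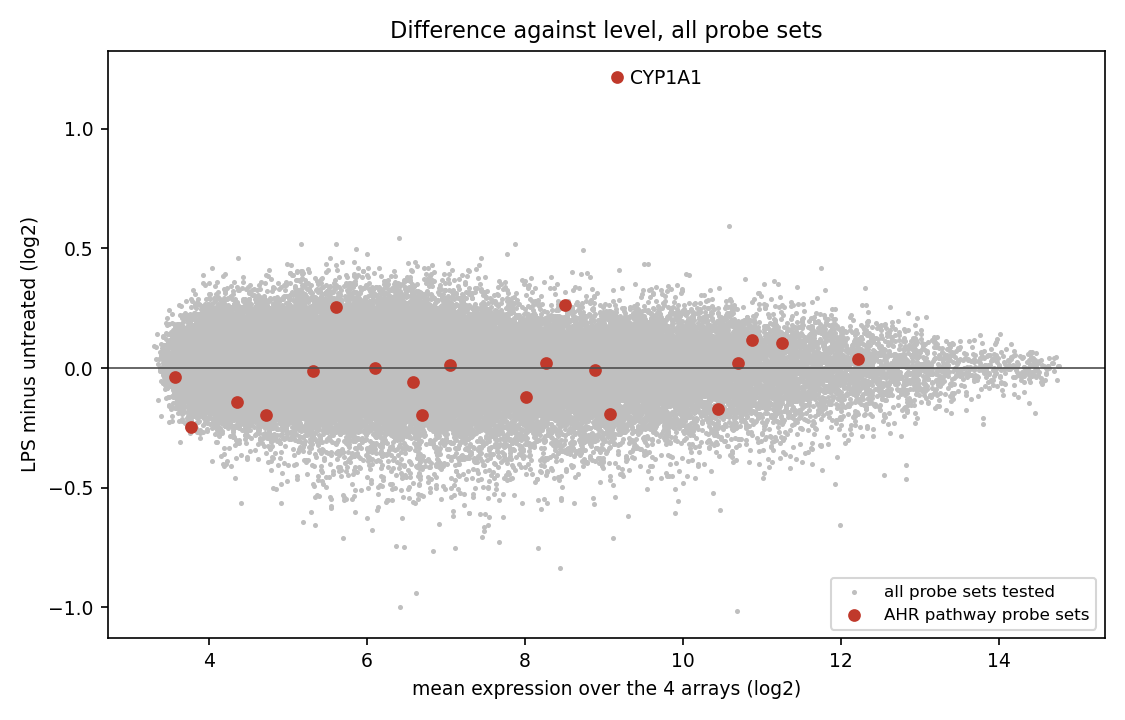
LPS minus untreated difference on the log2 scale (y axis) against mean log2 expression over the 4 arrays (x axis) for all 54613 probe sets (grey) and the 21 AHR pathway probe sets (red). CYP1A1, which was selected on this difference, lies above every other probe set, and the remaining red points lie within the grey cloud.

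Other genes of the pathway were taken by list, each gene on its probe set with the highest mean, and the median over all 19775 genes was 0.02, with 56.5% above 0 and 2.15% at an unadjusted p under 0.05. In none of the 7 lists did a member pass the adjusted test (limma, adjusted p = 1 for every gene named in these lists). The cytoplasmic complex and ARNT relatives had 5 members measured, a median of 0.00, and 0 members at an unadjusted p under 0.05. HSP90AB1, the constitutive HSP90 chaperone, differed by 0.18 ± 0.09 (SE), and its other probe sets by 0.12 and 0.13. PTGES3, the p23 co-chaperone, differed by -0.07 ± 0.07, ARNT2 by 0.08 ± 0.09 and the clock factor BMAL1 by -0.15 ± 0.12.

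The coactivators that AHR recruits had 7 members measured, a median of -0.14 and 0 members at an unadjusted p under 0.05. That median was 0.01 without untreated replicate 1, -0.28 without untreated replicate 2, -0.21 without LPS replicate 1 and -0.08 without LPS replicate 2. RB1, the retinoblastoma protein, differed by -0.26 ± 0.14 (SE), the receptor coactivator NCOA2 by -0.23 ± 0.13 and the acetyltransferase EP300 by -0.23 ± 0.15. Another probe set of RB1 differed by 0.05, another of EP300 by 0.16 and those of NCOA2 by -0.24 to 0.07, so the probe sets disagree. NCOA1, a relative of NCOA2, differed by 0.17 ± 0.11, with -0.20 to 0.03 on its other probe sets.

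Further AHR-responsive genes had 18 members measured, 7 above and 11 below 0, with a median of -0.03 and 1 member at an unadjusted p under 0.05. That member was PTGS2, the inducible prostaglandin synthase. PTGS2 read 8.71 and 8.78 on the LPS arrays, against 9.17 and 9.11 on the untreated arrays, a difference of -0.40 ± 0.11 (SE), opposite in sign to CYP1A1, and its other probe set differed by -0.94. IL1B differed by 0.16 ± 0.12, the transporter gene ABCG2 by 0.13 ± 0.09 and the EGF-family ligand gene EREG by 0.12 ± 0.11. ABCG2 and EREG, at 4.64 and 5.67 with LPS against 4.51 and 5.55 untreated, were as dim as the genes restricted to other organs. IL1B, at 7.11 with LPS and 6.95 untreated, was near the top of their range. The other IL1B probe set differed by 0.11 and that of EREG by 0.00.

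Enzymes of tryptophan breakdown, some of which make AHR ligands such as kynurenine while others use kynurenine, had 11 members measured. Of these, 9 were above 0 (KYNU at 0.00) and 2 below, with a median of 0.10 and 1 member at an unadjusted p under 0.05. Leaving out LPS replicate 2 or untreated replicate 1 brought the median to 0.04. Most were dim, and the median of their mean levels was 6.28. KMO, which hydroxylates kynurenine, differed by -0.36 ± 0.10 (SE), with -0.30 and 0.04 on its other probe sets. AFMID, the formamidase that yields kynurenine, differed by 0.19 ± 0.11, TDO2 by 0.17 ± 0.18 and TPH1, which starts serotonin synthesis, by 0.10 ± 0.09. The other TDO2 probe set differed by 0.22 and those of TPH1 by -0.06 and 0.03.

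The NRF2 genes, which NQO1 belongs with through its antioxidant response element, had 11 members measured, a median of 0.03 and 1 member at an unadjusted p under 0.05. SRXN1, a sulfiredoxin, read 10.32 and 10.22 on the LPS arrays, against 9.99 and 10.02 on the untreated arrays, a difference of 0.27 ± 0.10 (SE). HMOX1, haem oxygenase, differed in the other direction by -0.19 ± 0.13. The cystine transporter gene SLC7A11 differed by 0.15 ± 0.12 and GCLM, of glutathione synthesis, by -0.11 ± 0.10. For SLC7A11 this was 0.294 for array number 1 and -0.002 for number 2, and its other probe sets differed by -0.04 and 0.02. Those of GCLM differed by -0.24 and 0.01.

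The hypoxia factors that share ARNT, with their targets, had 9 members measured, a median of 0.00 and 1 member at an unadjusted p under 0.05. That was NDRG1, at 8.62 and 8.55 on the LPS arrays, against 8.22 and 8.26 on the untreated arrays, a difference of 0.35 ± 0.11 (SE). HIF1A differed by -0.05 ± 0.06, VEGFA by 0.04 ± 0.07 and PDK1 by -0.04 ± 0.12. The other VEGFA probe sets differed by 0.07 to 0.16 and those of PDK1 by 0.00 and 0.27. The donors of electrons to P450 enzymes and the xenobiotic nuclear receptors had 5 members measured, a median of 0.08 and 0 members at an unadjusted p under 0.05. That median was -0.08 without LPS replicate 2 and -0.07 without untreated replicate 1. Cytochrome b5 (CYB5A) differed by -0.17 ± 0.11, its reductase CYB5R3 by 0.09 ± 0.09, the dim receptor gene NR1I3 by -0.18 ± 0.11 and RXRA by 0.08 ± 0.11. Other probe sets of CYB5A differed by -0.02 to 0.07 and the other of NR1I3 by 0.07, so neither decrease was shared. The other CYB5R3 probe set differed by 0.08 and that of RXRA by 0.00.

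**Figure D4:**
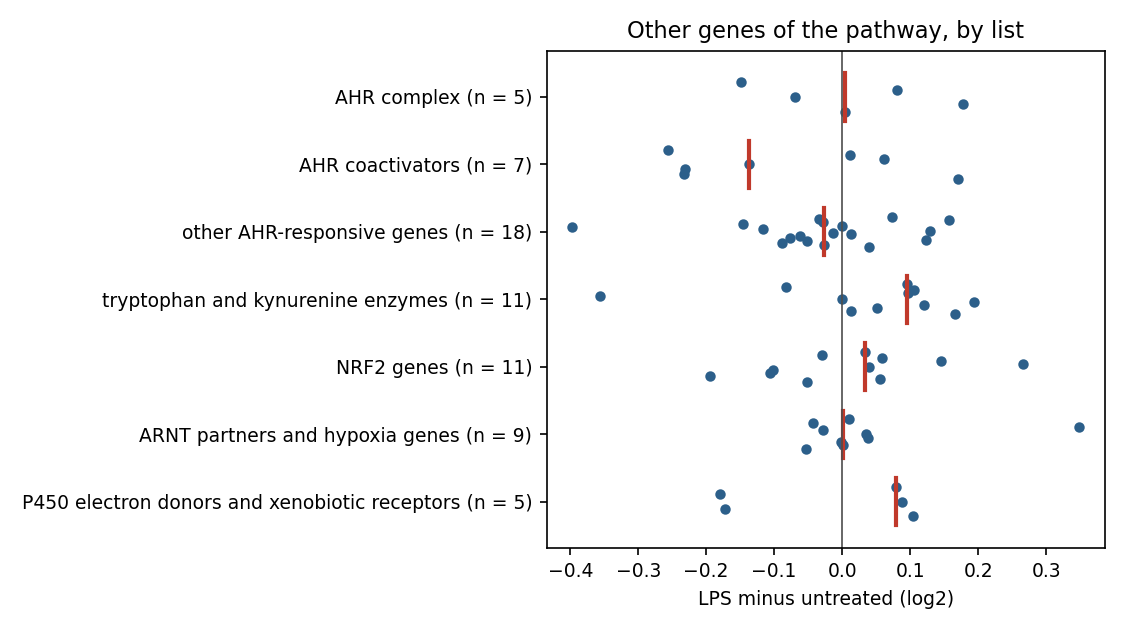
LPS minus untreated difference on the log2 scale (x axis) of the measured members of 7 further lists of the pathway (rows), each point a gene on its brightest probe set and each red bar the list's median. The medians lie between -0.14 and 0.10. CYP1A1 is not plotted. It was selected on this difference and had the highest of all probe sets, 1.21, so no point could reach it.

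The genes beside CYP1A1 on chromosome 15 were read in the same way. The 5 nearest protein-coding genes with a named probe set on either side had a median of 0.05, with 6 above and 4 below 0, 0 past the adjusted test and 0 at an unadjusted p under 0.05 (limma). Leaving out LPS replicate 2 brought that median to -0.01. The kinase gene CLK3 had the largest difference of the neighbours, 0.20 ± 0.13 (SE), and its other probe set was at 0.00. SEMA7A differed by 0.12 ± 0.12, ULK3 by 0.11 ± 0.12 and CYP1A2 by -0.12 ± 0.12.

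**Figure D5:**
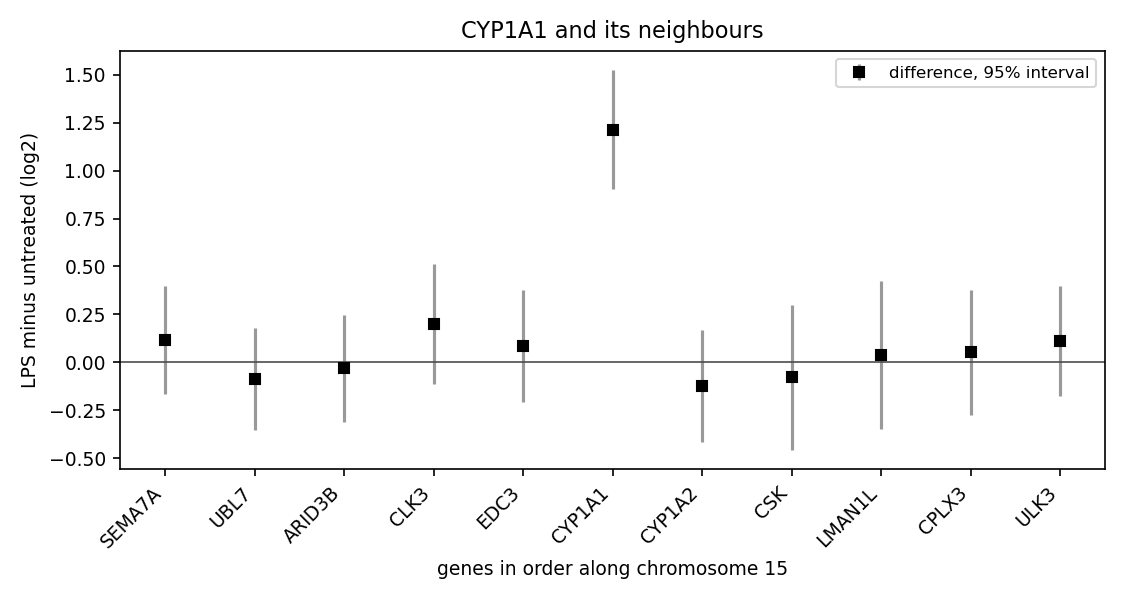
LPS minus untreated difference on the log2 scale (y axis), with 95% intervals from the limma fit, for CYP1A1 and the 5 protein-coding genes with a named probe set on either side, in chromosome order (x axis). The neighbours lie between -0.12 and 0.20. CYP1A1, which was selected on this difference, lies at 1.21.

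Likeness to CYP1A1 was measured as the root mean square distance between profiles over the 4 arrays, each gene centred on its own mean, in log2 units. A gene with no difference between arrays would be 0.61 away. The nearest of 19774 genes was the antisense transcript RAMP2-AS1 at 0.36, then FGF9, a fibroblast growth factor gene, at 0.38, FABP6, a bile acid carrier gene, at 0.41, and LINC01600 and LRRD1, each at 0.41. RAMP2-AS1 read 5.58 and 5.28 on the LPS arrays, against 5.05 and 4.78 on the untreated arrays, and FGF9 read 8.18 and 7.86, against 7.62 and 7.47. All but FGF9 were as dim as the genes restricted to other organs, and the other probe sets of RAMP2-AS1, FGF9 and FABP6 differed by -0.16 to 0.13. Among the members, the nearest was CYP1B1 at 0.50, followed by ALDH3A1 at 0.53 and TIPARP at 0.55, while AHR stood at 0.70 and ARNT at 0.73. The median over all genes ranked was 0.61. The CYP1A1 profile is mostly its difference between groups, so this order largely follows each member's own difference and adds no support. The CYP1B1 probe set used was dim with overlapping groups, and the others of that gene differed by -0.14 to -0.01.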

How the data were processed

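Expression was measured on 4 single-channel Affymetrix arrays, 2 of LPS-treated and 2 of untreated AGS cells. The deposited table holds log2 values for 54675 probe sets. MAS5 and RMA are named, with no role or version, per the submitters' processing notes. The deposited log2 values have the form of RMA output, which compresses differences of dim probe sets. Detection calls were not used here, and the number of arrays limits the precision. No further normalization was applied. Probe sets were named through the platform annotation, with gene numbers looked up in RefSeq (GRCh38.p14): 41097 had 1 symbol, 1801 several and 11777 none, and 62 control probe sets were left out.

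Each probe set was fitted with limma 3.58.1 (R 4.3.3; lmFit, then eBayes with a trend on intensity; a two-sided test without covariates), and p-values were adjusted by Benjamini-Hochberg over 54613 probe sets, at a threshold of 0.05. SEs and 95% intervals come from that fit. It was run on simulated data with arrays drawn independently, to look at calls and their signs only. Whether the intervals hold the true value was not checked. An exact permutation test of 2 against 2 arrays cannot give a p under 0.33. The members and lists were chosen with earlier results of these data known. Named were every member probe set, the up to 4 genes with the largest moderated statistic in each list, and the 5 genes most like CYP1A1; the neighbours were the 5 genes on either side. Alternatives were quantile normalization, a filter at the median level, no intensity trend, a replicate block, no _x_at or _s_at probe sets, the brightest or the mean probe set of a gene, and each array left out. Figures were drawn with matplotlib 3.10.9.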

Additional observations from a re-analysis of the deposited data

How the results depend on the processing

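The count of probe sets or genes past the adjusted threshold was 0 in both directions under all 11 alternatives (limma), and 0 members of the pathway lists passed in any of them. The difference of CYP1A1 ran from 1.08 to 1.34 over the 11 alternatives, both ends being from leaving out 1 untreated array. The block, the trend setting, the filters and the choice of the brightest probe set cannot change the difference of a single probe set. CYP1A1 has 1 probe set, so only quantile normalization and leaving out an array could move its difference. Of the 21 member probe sets, 13 kept their sign in every alternative that holds them and 8 did not, all with a difference of at most 0.06 in size in the fit of all arrays. CYP1B1 202436_s_at ran from 0.02 to 0.42, ALDH3A1 from 0.06 to 0.47, TIPARP from 0.06 to 0.18 and AHR from -0.30 to -0.04. ARNT had the widest range, -0.43 to 0.47 on 231016_s_at, and its brightest probe set, 218222_x_at, ran from -0.38 to -0.01. The median of 7 of the 8 gene lists, neighbours included, changed sign in at least 1 alternative. The exception, tryptophan breakdown, ran from 0.04 to 0.10. Same-numbered arrays deviated together (r = 0.54 across probe sets), but the labels do not say that a number marks a shared experiment. With the replicate block, 0 probe sets passed, the smallest adjusted p was 0.685 (limma), and 1544 were higher and 2035 lower at an unadjusted p under 0.05. Dim probe sets, among them those of CYP1B1 and AHRR, limit what can be read for those genes.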
